A study of Arabidopsis thaliana with 8 samples.

Results

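The Dicers and Argonautes of Arabidopsis thaliana and the Dicer partners HYL1 and SE were followed in primary roots by RNA-seq. The 10 genes were taken by their locus identifiers, namely DCL1, DCL2, DCL3, DCL4, HYL1, SE, AGO1, AGO2, AGO4 and AGO10, out of 33602 loci counted. All roots were of wild-type Col-0, grown at 21 °C on half-strength Murashige-Skoog agar without sucrose, and each library came from an independent sample of about 70 seedlings. There were 4 groups of 2 libraries, 8 in all. In the dark groups the whole plate was wrapped in foil for 4 or 7 days. With lit shoots, a D-Root device, modified, kept the roots dark while the shoots received 16 h of white light (130 µmol) and 8 h of dark per day, again for 4 or 7 days. The comparison asks how root transcripts respond to light on the shoot. Every library is a whole primary root, so fewer cells of a type and less RNA per cell cannot be told apart.

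Small RNAs guide silencing in plants. Dicer enzymes cut folded or double-stranded RNA into short duplexes, and an Argonaute protein keeps one strand and uses it to find matching RNA. DCL1, helped by the double-stranded RNA binding protein HYL1 and the zinc-finger protein SE (SERRATE), makes microRNAs (miRNAs), whereas DCL2, DCL3 and DCL4 make small interfering RNAs (siRNAs) for antiviral defence, RNA-directed DNA methylation and trans-acting siRNAs. AGO1 is the main miRNA effector, AGO2 acts in antiviral defence, AGO4 directs DNA methylation, and AGO10 binds miR165 and miR166 and thereby keeps them from AGO1. The pathway also regulates itself, because DCL1, AGO1 and AGO2 transcripts are themselves miRNA targets. Mature small RNAs were not measured here; the counts are of the longer RNAs in the libraries.

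The miRNAs known to target DCL1, AGO1 and AGO2 are shown because they link the genes into feedback loops, and miR165 and miR166 because AGO10 binds them. They were read from the RefSeq TAIR10.1 genome at the annotated positions, 5′ to 3′, with the seed (bases 2 to 8) in capitals. They lie at chr5:2634936-2634956 (minus strand), chr4:10578652-10578672 (plus), chr2:19415154-19415174 (plus), chr1:78932-78952 (minus) and chr2:19176241-19176261 (plus), in the order printed.
miR162a-3p: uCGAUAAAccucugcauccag
miR168a-5p: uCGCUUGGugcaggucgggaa
miR403-3p: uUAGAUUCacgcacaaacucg
miR165a-3p: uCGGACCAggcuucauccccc
miR166a-3p: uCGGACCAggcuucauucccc
The second precursors of miR162 and miR168 gave the same mature sequences. miR165a and miR166a share the seed CGGACCA, and the other 3 seeds differ from it and from each other.

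The matching stretches in the transcripts are printed next, with bases that pair by Watson-Crick rules with the miRNA in capitals and unpaired or G:U bases in lower case. The DCL1 stretch crosses an exon junction (chr1:27522-27533 and chr1:27618-27627, plus strand, TAIR10.1) in the coding sequence and pairs with miR162 at 21 of its 22 bases, with 1 bulged base. The AGO1 stretch (chr1:17891529-17891549, minus strand) is coding and pairs with miR168 at 18 of 21 bases. The AGO2 stretch (chr1:11185223-11185243, plus strand) lies in the 3′ UTR and pairs with miR403 at 20 of 21 bases. CNA, one of the class III HD-ZIP transcription factor genes targeted by miR165 and miR166, holds a coding stretch (chr1:19412976-19412985 and chr1:19413075-19413085, minus strand) that pairs with miR166 at 18 of 21 bases.
DCL1 site: CUGGAUGCAGAGGUaUUAUCGA
AGO1 site: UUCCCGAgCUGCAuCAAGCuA
AGO2 site: gGAGUUUGUGCGUGAAUCUAA
CNA site: cuGGAAUGAAGCCUGGUCCGg

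Library totals ran from 25326045 to 30555290 counts, and replicates of a group correlated at 0.980 to 0.987 in log2 CPM (counts scaled to a common library size with TMM factors) across genes, which are not independent replicates. Replicate libraries were further apart than counting noise allows in each group (chi-square over degrees of freedom 11.9 to 66.0). The 10 root identity markers summed to 669 to 1361 CPM per library, of which the phosphate exporter gene PHO1 gave 380.4 to 1074 CPM. The endodermal genes SCR (26.6 to 51.9 CPM) and CASP1 (42.5 to 177.5 CPM) were detected in every library, whereas the root hair gene COBL9 had 0.160 and 0.589 CPM in dark roots at 7 days. The 10 shoot markers summed to 1.58 to 19.0 CPM, and the shoot meristem genes STM and CLV3 had at most 1 count per library, while the stomatal genes MUTE and FAMA had 0. TMM and SPCH, also stomatal genes, were too low to be tested. TMM had 6 and 14 counts with lit shoots against 0 and 1 in the dark at 4 days, and 7 and 8 against 3 and 6 at 7 days. SPCH had 1 and 3 against 1 and 0 counts at 4 days, and 5 and 1 against 0 and 0 at 7 days. Most of the highest sums, 13.2 and 19.0 CPM with lit shoots at 7 days, came from the epidermal gene PDF1 (10.9 and 14.2 CPM), and ATML1, another epidermal gene, had 0.137 to 7.73 CPM; both are named here after their values were seen. All 10 small RNA genes passed the filter on low counts. No exon stretch of at least 50 bases in them matched another place in the genome at 95% identity or more, and the closest for AGO2 was AGO3 at 87.3% over 63 bases. DCL2 overlaps AT3G03305 on the same strand over 847 bases (10.2% of the gene), and DCL1 holds the miRNA gene MIR838 (8 to 30 counts) within it. HYL1 overlaps AT1G09690, which had 1176 to 7474 counts, on the same strand over 36 bases (1.33% of HYL1). On the opposite strand DCL1 overlaps AT1G03993 over 788 bases (9.72% of DCL1) and PPa1 (608 to 2572 counts) over 58 bases, and DCL3 overlaps AT3G43930 (11 to 58 counts) over 43 bases. Reads in the same-strand stretches could belong to either gene whichever strand was counted. The strand counted is not given in the sources used here, so the same holds for the opposite-strand stretches. AT1G03993 is not among the loci counted, so reads from it could only have been added to DCL1.

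Per kilobase of exon, AGO1 had the highest level of the 10 genes in every group and SE the second, while DCL3 had the lowest. In dark roots at 4 days AGO1 stood at 82.7 ± 3.96 CPM per kb (SD, n = 2), SE at 35.8, AGO10 at 23.8 and DCL1 at 20.5. AGO2 (15.5) and DCL2 (13.2) followed with overlapping ranges, then AGO4 (9.74), DCL4 (8.21), HYL1 (3.53) and DCL3 (1.95) CPM per kb. The order was different with lit shoots. At 4 days AGO4 came next after SE at 16.0 CPM per kb, ahead of AGO10 (11.3) and DCL1 (10.3), whose ranges overlapped. DCL2 (8.24), AGO2 (7.50) and HYL1 (6.29) formed an overlapping run, followed by DCL4 (4.99) and DCL3 (1.66). At 7 days dark roots had AGO1 at 103.7, SE at 41.1, DCL1 at 34.1, AGO10 at 25.8 and AGO2 at 22.8 CPM per kb, with no overlap between any neighbours in the order. The lower end there was DCL2 (14.1), DCL4 (12.8), AGO4 (8.99), HYL1 (4.84) and DCL3 (2.10). With lit shoots at 7 days AGO1 was at 68.2, SE at 25.9 and AGO4 at 15.7 CPM per kb. DCL1 (10.4) and AGO10 (10.2) overlapped there, as did the run DCL2 (9.02), AGO2 (8.70) and DCL4 (8.02), with HYL1 at 6.27 and DCL3 at 2.49.

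**Figure D1:**
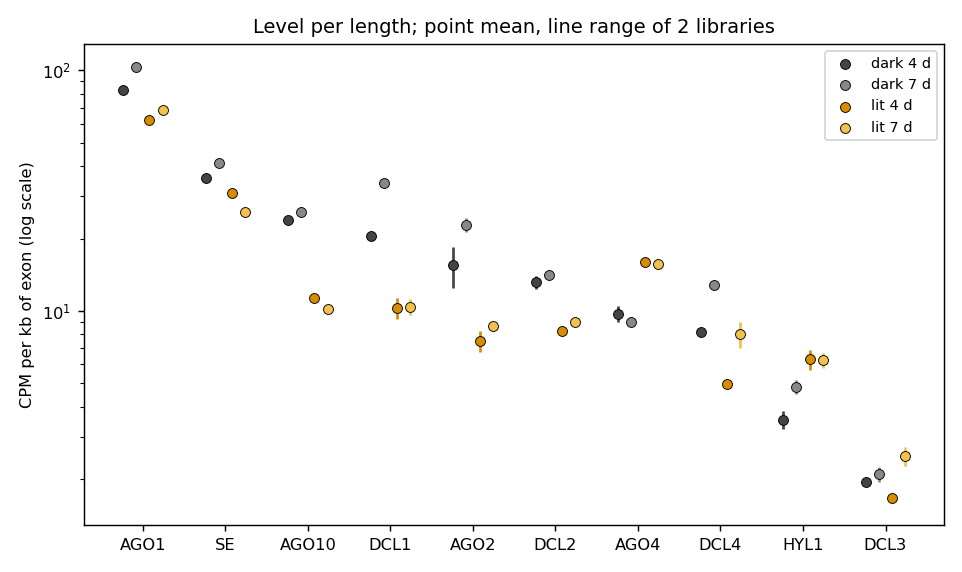
Mean level of each gene in CPM per kilobase of exon on a log axis, for the 4 groups of 2 libraries; lines span both libraries. AGO1 lies at 62.0 to 103.7 in all groups and DCL3 at 1.66 to 2.49, while AGO4 and HYL1 lie above their dark levels (9.74 and 8.99 for AGO4, 3.53 and 4.84 for HYL1) in both lit groups (16.0 and 15.7, 6.29 and 6.27).

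Light on the shoot went with lower transcript levels of most of the machinery. At 4 days 6 of the 10 genes fell and 2 rose (HYL1 and AGO4), against 57.1% of all 20936 tested genes called, 30.5% higher and 26.6% lower. At 7 days 7 fell and 1 rose (AGO4), against 69.0% of all genes called, 36.2% higher and 32.8% lower. The median log2 fold change of the 10 genes was -0.55 at 4 days and -0.66 at 7 days, beside 0.07 and 0.06 over all genes. In both comparisons the dark and lit libraries did not overlap for any of the 10 genes, where the same held for 82.2% of all genes at 4 days and 85.5% at 7 days. Calls are from edgeR's quasi-likelihood test at an adjusted p below 0.05.

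**Figure D2:**
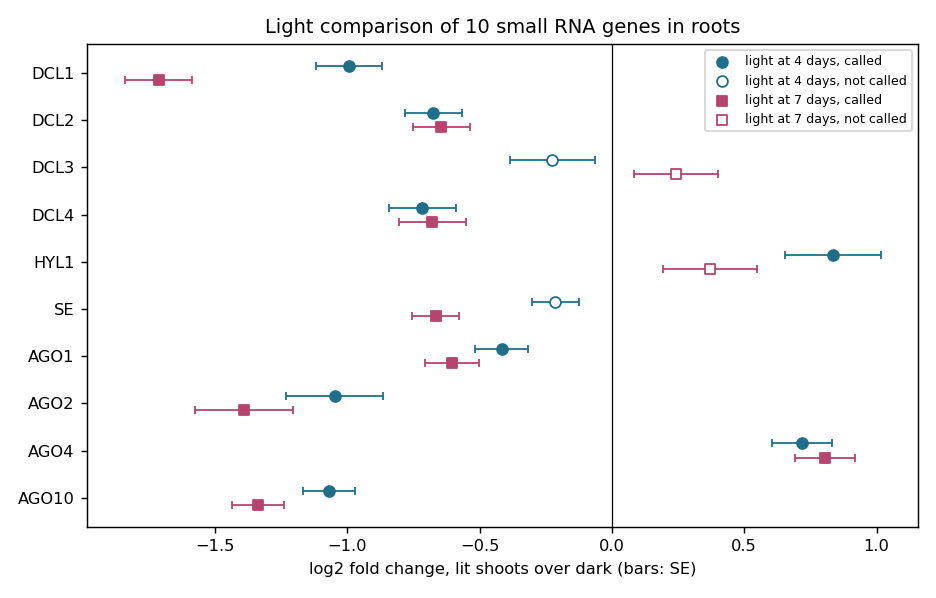
Log2 fold change of lit-shoot over dark roots for the 10 genes at 4 and 7 days, with standard errors; filled symbols passed the test. DCL1 has the most negative value, -1.71 at 7 days, and HYL1 and AGO4 are the genes with filled symbols to the right of 0.

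DCL1 (AT1G01040, chr1:23121-31227, plus strand), the miRNA-producing Dicer, had 126 and 131 CPM in dark roots at 4 days and 71.0 and 58.0 CPM with lit shoots. At 7 days it had 215.5 and 213 CPM in the dark and 70.3 and 60.4 CPM with lit shoots. The lit libraries at both days lay at a similar level, whereas the dark libraries were higher at 7 days than at 4. DCL1 fell by 0.99 ± 0.125 (SE) on the log2 scale with light at 4 days, a 1.99-fold lower level (edgeR adjusted p = 0.000261). It fell by 1.71 ± 0.127 at 7 days, 3.28-fold lower (edgeR adjusted p = 8.14e-06). This was the lowest log2 fold change of the 10 genes.

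DCL2 (AT3G03300, chr3:767880-776214, minus strand), which makes siRNAs in antiviral defence, had 74.5 and 65.9 CPM in the dark at 4 days and 42.6 and 45.4 CPM with lit shoots. Its 7-day values were 78.2 and 72.4 CPM in the dark and 50.2 and 46.1 CPM with lit shoots. DCL2 was lower with light at both days and to a like extent. The log2 fold change was -0.67 ± 0.108 at 4 days (edgeR adjusted p = 0.000859) and -0.65 ± 0.107 at 7 days (edgeR adjusted p = 0.000656).

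DCL4 (AT5G20320, chr5:6859212-6869307, minus strand) cuts the precursors of trans-acting siRNAs. It had 47.6 and 46.6 CPM in the dark and 29.0 and 28.3 CPM with lit shoots at 4 days. Both conditions were higher at 7 days, with 76.4 and 70.8 CPM in the dark and 51.6 and 40.5 CPM with lit shoots. Light again went with less DCL4. The log2 fold change was -0.72 ± 0.127 at 4 days, 1.64-fold lower (edgeR adjusted p = 0.00147), and -0.68 ± 0.125 at 7 days, 1.60-fold lower (edgeR adjusted p = 0.00122).

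DCL3 (AT3G43920, chr3:15753387-15760859, plus strand), the Dicer of RNA-directed DNA methylation, was the one Dicer with no call for light at either day. Its values were 9.89 and 9.74 CPM in the dark and 8.03 and 8.76 CPM with lit shoots at 4 days, and 9.81 and 11.37 against 13.7 and 11.41 CPM at 7 days. The log2 fold change was -0.23 ± 0.161 at 4 days (edgeR adjusted p = 0.257) and 0.24 ± 0.158 at 7 days (edgeR adjusted p = 0.197), and the test of the difference between days gave an adjusted p of 0.189.

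HYL1 (AT1G09700, chr1:3137649-3140353, minus strand), which helps DCL1 to cut at the right place, was the one gene of the miRNA-cutting trio that was higher with lit shoots. It had 5.82 and 6.93 CPM in the dark and 10.3 and 12.4 CPM with lit shoots at 4 days. Its 7-day values were 8.13 and 9.35 CPM in the dark and 12.1 and 10.5 CPM with lit shoots. HYL1 rose by 0.83 ± 0.181 on the log2 scale at 4 days, 1.78-fold (edgeR adjusted p = 0.00422). At 7 days the difference was 0.37 ± 0.177 and did not pass (edgeR adjusted p = 0.0903), and with library totals alone as the scaling it was 0.54 and did (adjusted p = 0.0285).

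SE (AT2G27100, chr2:11572397-11576658, plus strand), which binds primary miRNA transcripts beside DCL1 and HYL1, had 93.3 and 96.8 CPM in the dark and 83.4 and 80.4 CPM with lit shoots at 4 days. At 7 days it had 110 and 107.9 CPM in the dark and 67.5 and 69.9 CPM with lit shoots. The dark and lit libraries were thus further apart at 7 days. The log2 fold change of -0.21 ± 0.089 at 4 days did not pass (edgeR adjusted p = 0.0681), and SE fell by 0.67 ± 0.090 at 7 days, 1.59-fold lower (edgeR adjusted p = 0.000188). The 4-day value passed in 4 of 15 alternatives, with adjusted p of 0.0208 under a filter of 1 CPM, 0.0267 without organelle loci, 0.0256 without replicate 1 of dark 7 days and 0.0258 without replicate 2.

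AGO1 (AT1G48410, chr1:17885633-17892632, minus strand), the main miRNA effector, had 311 and 291 CPM in the dark and 231 and 220 CPM with lit shoots at 4 days. Its 7-day values were 374 and 380.2 CPM in the dark and 250.3 and 246 CPM with lit shoots. AGO1 fell by 0.42 ± 0.100 on the log2 scale at 4 days (edgeR adjusted p = 0.00709) and by 0.60 ± 0.101 at 7 days (edgeR adjusted p = 0.000658). The 4-day call was lost with library totals alone (-0.22, adjusted p = 0.0935) and without replicate 2 of lit 4 days (-0.38, adjusted p = 0.0663).

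AGO2 (AT1G31280, chr1:11181504-11185396, plus strand), the antiviral Argonaute, had 66.7 and 45.1 CPM in the dark at 4 days, the widest replicate gap of the 10 genes (0.56 on the log2 scale). With lit shoots it had 29.7 and 24.4 CPM. At 7 days the values were 87.4 and 76.9 CPM in the dark and 31.4 and 31.3 CPM with lit shoots. Despite that gap the dark and lit libraries stood clear of each other. AGO2 fell by 1.05 ± 0.185 on the log2 scale at 4 days, 2.07-fold lower (edgeR adjusted p = 0.00154), and by 1.39 ± 0.185 at 7 days, 2.62-fold lower (edgeR adjusted p = 0.000194).

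AGO10 (AT5G43810, chr5:17610744-17616907, plus strand) is known from shoot and embryo meristems as the Argonaute that binds and holds back miR165 and miR166. It had 96.3 and 105 CPM in the dark and 47.5 and 48.5 CPM with lit shoots at 4 days. At 7 days it had 105 and 114 CPM in the dark and 42.3 and 44.2 CPM with lit shoots. Replicates lay close together and light separated them widely at both days. AGO10 fell by 1.07 ± 0.099 on the log2 scale at 4 days, 2.10-fold lower (edgeR adjusted p = 7.03e-05), and by 1.34 ± 0.099 at 7 days, 2.53-fold lower (edgeR adjusted p = 8.26e-06).

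AGO4 (AT2G27040, chr2:11536502-11542391, minus strand), the effector of RNA-directed DNA methylation, moved the other way. It had 34.2 and 29.2 CPM in the dark and 51.1 and 53.2 CPM with lit shoots at 4 days. Its 7-day values were 28.9 and 29.6 CPM in the dark and 48.7 and 53.6 CPM with lit shoots. AGO4 rose by 0.72 ± 0.113 on the log2 scale at 4 days, 1.64-fold (edgeR adjusted p = 0.000807), and by 0.81 ± 0.113 at 7 days, 1.75-fold (edgeR adjusted p = 0.000242). It was the one gene of the 10 called higher with light at both days.

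**Figure D3:**
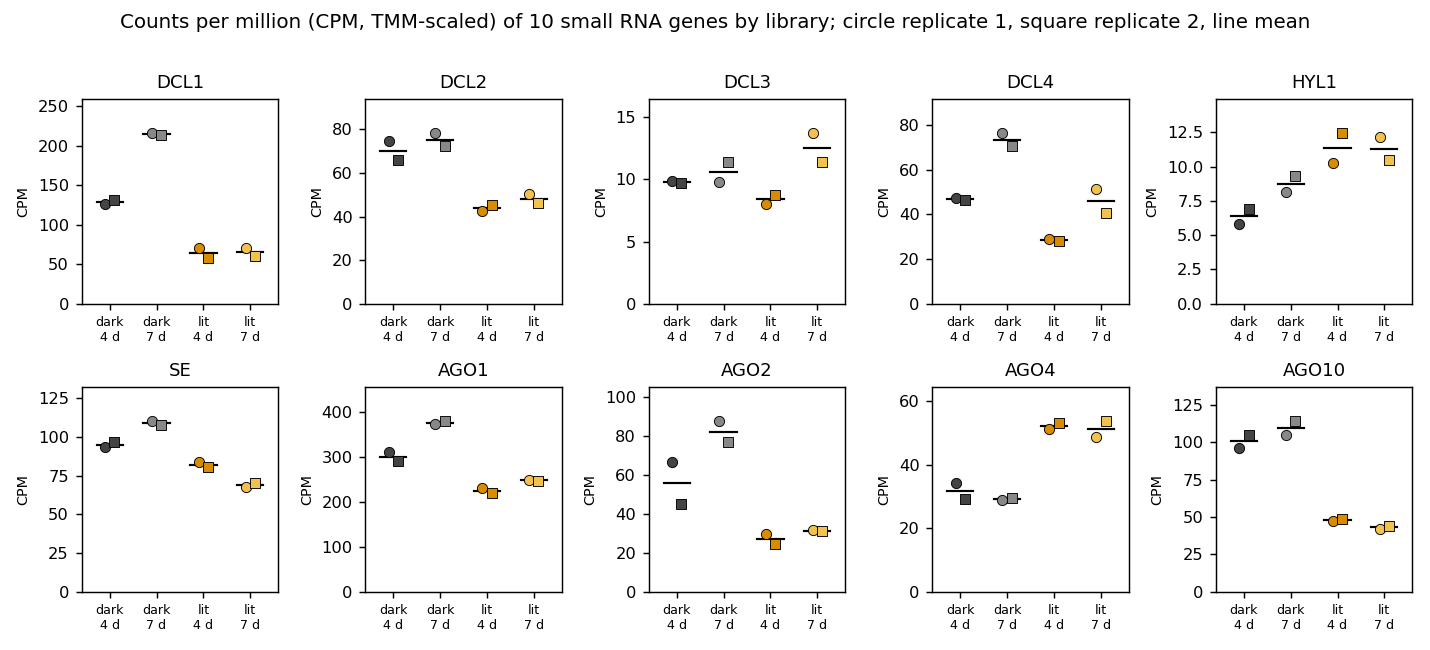
CPM of the 10 genes in each of the 8 libraries (circles replicate 1, squares replicate 2, lines the means of 2 libraries), dark in grey and lit shoots in orange. DCL1 reaches 215.5 CPM in dark roots at 7 days against 58.0 to 71.0 CPM in the lit libraries, and AGO4 stays at 28.9 to 34.2 CPM in the dark against 48.7 to 53.6 CPM with lit shoots.

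With library totals in place of TMM factors the log2 fold changes of all genes shifted at their median by 0.199 at 4 days and 0.169 at 7 days, and the share of higher genes among all calls at 4 days was 66.2% rather than 53.5%. The 10 genes then gave 2 higher and 5 lower at 4 days and 2 higher and 7 lower at 7 days.

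Markers of dividing cells moved with light too. All 10 of them rose at both days, and they summed to 59.0 and 71.1 CPM in the dark and 198.7 and 205.4 CPM with lit shoots at 4 days, and to 22.0 and 21.4 against 191.6 and 195.6 CPM at 7 days. At 4 days the cyclin genes CYCB1;1 (2.57) and CYCA1;1 (2.45) had the largest log2 rises, and at 7 days CDKB1;2 (4.55) and CYCA1;1 (4.54). The 8 vascular markers summed to 355 and 474 CPM in the dark at 4 days and 545 and 493 CPM with lit shoots, and to 88.8 and 90.1 against 672 and 478 CPM at 7 days. Xylem genes gave most of these sums except in dark roots at 7 days, where the phloem gene SUC2 alone gave 47.8 and 51.8 CPM. Of the xylem genes, XCP1 rose by 0.69 and 5.15 at 4 and 7 days, CESA7 by 0.72 at 4 days and CESA8 by 4.99 at 7 days. Of the phloem genes, SUC2 fell by 1.64 at 4 days (edgeR adjusted p = 5.08e-05), with 0.05 at 7 days (0.763), and APL fell by 0.67 and 0.85 (0.00413 and 0.000698), so that 2 vascular markers rose and 2 fell at 4 days and 6 rose and 1 fell at 7 days. The CESA7 call was lost in 5 of 15 alternatives (adjusted p up to 0.185) and the 4-day XCP1 call without replicate 1 of dark 4 days (0.0823).

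Of the root identity markers 3 rose and 1 fell with light at 4 days, and 4 rose and 3 fell at 7 days. COBL9 rose by 3.76 and 6.32 on the log2 scale and the epidermal gene WER by 1.13 and 3.11, whereas PHO1 fell by 1.38 and 0.65 and the root meristem gene PLT2 fell by 0.70 at 7 days. The 7-day calls of PHO1 and PLT2 were each lost in 3 of 15 alternatives, library totals alone among them (adjusted p up to 0.248 and 0.163). PDF1 rose at 7 days by 7.27 ± 0.630 (edgeR adjusted p = 1.81e-05), with -0.02 at 4 days (0.972). The part of these cell types in the results on the 10 genes was not tested.

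From 4 to 7 days in the dark 4 of the 10 genes rose (DCL1, DCL4, AGO1 and AGO2) and none fell, against 31.6% of all genes called, 13.3% higher and 18.3% lower. Their dark libraries at 4 days also serve the light comparison, so the values of both comparisons share samples. DCL1 rose by 0.74 ± 0.124 on the log2 scale, 1.67-fold (edgeR adjusted p = 0.00331), and DCL4 by 0.64 ± 0.126, 1.56-fold (edgeR adjusted p = 0.0062). AGO1 rose by 0.33 ± 0.100 (edgeR adjusted p = 0.0377) and AGO2 by 0.56 ± 0.181 (edgeR adjusted p = 0.0464). Of the others, HYL1 differed by 0.46 (adjusted p = 0.0877), SE by 0.20 (0.121), AGO10 by 0.12 (0.38), DCL3 by 0.11 (0.629), DCL2 by 0.10 (0.498) and AGO4 by -0.12 (0.467), none past the threshold. Libraries of 4 and 7 days did not overlap for 6 of the 10 genes, against 69.5% of all genes. The DCL1 call held in all 15 alternatives. DCL4 lost its call without replicate 1 of dark 7 days (adjusted p = 0.0537). The AGO1 call held in 8 of 15, and was lost with no filter on low counts (adjusted p = 0.0782) and without replicate 1 or 2 of dark 4 days (0.0969 and 0.237), of dark 7 days (0.131 and 0.11) or of lit 4 days (0.0734 for each). The AGO2 call held in 5 of 15, and was lost with DESeq2 size factors (0.052), at 1 CPM in 2 samples (0.0561), with organelle, rRNA and tRNA loci left out (0.0582), and without replicate 2 of dark 4 days (0.257), replicate 1 or 2 of dark 7 days (0.238 and 0.085), of lit 4 days (0.0619 and 0.0622) or of lit 7 days (0.0631 and 0.063). Leaving out 1 library gave 1 to 3 calls in all.

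Cell type markers moved over the same days in the dark. All 10 dividing-cell markers fell, with CDKB1;2 (-2.55) and SYP111 (-2.32) the lowest, and the calls of CYCB1;1 and PCNA2 were lost in 5 and 9 of 15 alternatives (adjusted p up to 0.262 and 0.126). Of the 8 vascular markers 7 fell, with XCP1 (-4.44) and CESA8 (-4.33) the lowest, while APL rose by 0.48, a call lost in 6 of 15 alternatives (adjusted p up to 0.165). Of the root identity markers 5 fell and none rose, with COBL9 at -3.20 and WER at -2.19, and COBL9 lost its call in 7 of 15 alternatives (adjusted p up to 0.193). PDF1 fell by 3.29 (edgeR adjusted p = 0.0145), a call lost without replicate 1 of dark 4 days or replicate 2 of dark 7 days (up to 0.0833). Their part in the rises of DCL1, DCL4, AGO1 and AGO2 was not tested.

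Over time with lit shoots few of all genes were called, 4.23%, with 2.13% higher and 2.10% lower. Of the 10 genes 1 was called (10%), DCL4, which rose by 0.68 ± 0.127 on the log2 scale from 4 to 7 days (edgeR adjusted p = 0.0281). DCL3 had a difference of 0.58 ± 0.159 that did not pass (adjusted p = 0.0784) unless no filter on low counts was used (0.0323). SE differed by -0.25, AGO2 by 0.21, AGO10 by -0.15, AGO1 by 0.14 and DCL2 by 0.13, and DCL1, HYL1 and AGO4 by 0.03 or less in size. The libraries of both days did not overlap for 7 of the 10 genes, against 55.4% of all genes. The DCL4 call was lost without replicate 1 or 2 of lit 4 days (adjusted p = 0.199 and 0.158) and without replicate 1 of lit 7 days (0.0733), which left 0 calls. Over the same comparison the 10 dividing-cell markers differed by -0.16 to 0.15 on the log2 scale and did not pass (edgeR adjusted p of 0.604 or more). Of the vascular markers SUC2 rose by 0.95, which was lost without replicate 1 or 2 of lit 4 days (adjusted p up to 0.0955). Of the root identity markers 3 fell, CASP1 by 0.87, PLT1 by 0.74 and SHR by 0.65, calls lost in 6, 7 and 8 of 15 alternatives (adjusted p up to 0.267, 0.227 and 0.245), and PDF1 rose by 4.01, which was lost without replicate 1 or 2 of lit 4 days (up to 0.105).

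The light response differed between the days for 2 of the 10 genes, DCL1 and SE, by the test of the interaction, against 14.6% of all genes called, 9.03% higher and 5.57% lower. Both responses were more negative at 7 days, by -0.72 ± 0.176 for DCL1 (edgeR adjusted p = 0.0297) and -0.45 ± 0.126 for SE (edgeR adjusted p = 0.0462). For HYL1 (-0.46 ± 0.253, adjusted p = 0.24), AGO2 (-0.34 ± 0.258, 0.397), AGO10 (-0.27 ± 0.139, 0.217) and AGO1 (-0.19 ± 0.142, 0.396) the difference between days did not pass. Values for DCL2, DCL4 and AGO4 were 0.03, 0.04 and 0.09. The DCL1 call was lost without replicate 1 or 2 of dark 4 days (adjusted p = 0.0949 and 0.0918), replicate 1 or 2 of dark 7 days (0.104 and 0.0693), replicate 1 of lit 4 days (0.127) and replicate 2 of lit 7 days (0.0605). SE lost its call without any 1 of the 8 libraries (adjusted p from 0.0623 to 0.171), with the replicate number as a block (0.0538), with no filter on low counts (0.109), with a filter of 1 CPM in 2 samples (0.062) and with organelle, rRNA and tRNA loci left out (0.0698). In the same test 8 of 10 dividing-cell markers and 7 of 8 vascular markers were called more positive at 7 days, and their part in the values of DCL1 and SE was not tested.

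The remaining Argonautes were at low levels in roots. AGO5 and AGO9 had at most 3 counts in any library and were not tested. AGO7, which binds miR390 to start trans-acting siRNA production, had 5.63 to 10.02 CPM over the 8 libraries and no call. AGO6, a close relative of AGO4 in DNA methylation, had 2.24 and 1.78 CPM in the dark and 3.87 and 3.61 CPM with lit shoots at 4 days, and 1.44 and 1.25 against 3.02 and 3.82 CPM at 7 days. AGO6 rose with light as AGO4 did, by 0.89 ± 0.271 at 4 days (edgeR adjusted p = 0.0203) and 1.35 ± 0.280 at 7 days (edgeR adjusted p = 0.00231). The 4-day call was lost without replicate 2 of dark 4 days (adjusted p = 0.137) or replicate 1 or 2 of lit 4 days (0.0914 and 0.0678). AGO3, the neighbour and relative of AGO2 that also carries a miR403 match, had 0.151 to 2.20 CPM and no call. AGO8 had 0 to 15 counts per library and no call.

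A wider list of 48 partner genes of the pathways, 46 of them tested, did not lean one way with light. At 4 days 13 rose and 11 fell, 52.2% called against 57.1% of all genes, and at 7 days 14 rose and 13 fell, 58.7% called against 69.0%. The median log2 fold change was 0.07 at both days, beside 0.07 and 0.06 over all genes. Of these calls 15 of 24 at 4 days and 22 of 27 at 7 days held in all 15 alternatives. Among 22 genes of miRNA processing and turnover, 6 rose and 6 fell at 4 days (54.5% called), and 5 rose and 9 fell at 7 days (63.6% called), against the same shares of all genes. SQN, a cyclophilin that helps AGO1 take up its small RNA, rose by 1.56 ± 0.207 at 4 days (edgeR adjusted p = 0.000347) and by 1.65 ± 0.205 at 7 days (0.00012). HEN1, the methyltransferase that protects miRNA ends, had 5.41 and 5.45 CPM in the dark and 12.5 and 15.7 CPM with lit shoots at 4 days, a rise of 1.37 ± 0.172 (edgeR adjusted p = 0.000255), and it rose by 0.93 ± 0.165 at 7 days (0.000962). These genes moved opposite to DCL1 and AGO1.

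Other genes of miRNA processing and turnover fell, as DCL1 and AGO1 did. CDC5, a DNA-binding protein that interacts with DCL1 and SE, had 344 and 372 CPM in the dark and 172 and 178 CPM with lit shoots at 4 days. It fell by 1.03 ± 0.104 at 4 days (edgeR adjusted p = 9.76e-05) and 1.15 ± 0.105 at 7 days (2.19e-05). URT1, which adds uridines to RNA ends, fell by 1.21 ± 0.102 at 4 days (edgeR adjusted p = 4.98e-05) and 1.51 ± 0.103 at 7 days (5.64e-06). DRB5, a double-stranded RNA binding protein of the HYL1 family, had the largest rise of this list at 7 days. Its levels were 3.74 and 5.37 CPM in the dark and 9.26 and 10.4 CPM with lit shoots at 4 days, and 0.439 and 0.368 against 6.01 and 7.55 CPM at 7 days. The light response of DRB5 was 4.06 ± 0.309 at 7 days (edgeR adjusted p = 8.95e-06), and it differed from that at 4 days by 2.95 ± 0.394 (edgeR adjusted p = 0.00328). In the dark alone DRB5 fell by 3.48 ± 0.315 from 4 to 7 days (edgeR adjusted p = 0.000189).

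Over time in the dark HEN1 rose by 0.73 ± 0.174 (edgeR adjusted p = 0.0141) and CPL1, a phosphatase that acts on HYL1, by 0.71 ± 0.121 (0.00356). The HEN1 call was lost without replicate 1 or 2 of dark 4 days (adjusted p = 0.0606 and 0.0663) or replicate 2 of dark 7 days (0.0777). For CPL1 (-0.67) and HST (-0.52), a relative of nuclear export receptors needed for normal miRNA levels, the light response was more negative at 7 days (edgeR adjusted p = 0.0345 and 0.0497). Both calls were lost without any 1 library other than replicate 1 of lit 7 days (adjusted p up to 0.149 for CPL1 and 0.181 for HST). The CPL1 call was also lost with organelle, rRNA and tRNA loci left out (0.0516). The HST call was lost in 13 of 15 alternatives, among them DESeq2 size factors (0.0533), the DESeq2 Wald test (0.0584), no filter (0.0605), 1 CPM in 2 samples (0.0729), organelle loci left out (0.0762) and the replicate block (0.0609). In all, 6 partner genes rose and 5 fell over time in the dark (23.9% called against 31.6% of all genes), 1 rose with lit shoots (2.17% against 4.23%), and the interaction was called for 3 (6.52% against 14.6%).

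In secondary siRNA production the polymerase genes RDR6 and RDR1 moved in opposite directions with light. RDR6, the RNA-dependent RNA polymerase that feeds DCL4, had 30.3 and 29.6 CPM in the dark and 42.0 and 48.2 CPM with lit shoots at 4 days, and 19.9 and 26.4 against 46.7 and 43.9 CPM at 7 days. RDR6 rose by 0.59 ± 0.144 at 4 days (edgeR adjusted p = 0.00752) and by 0.97 ± 0.145 at 7 days (0.000359), the reverse of DCL4. RDR1, a polymerase of antiviral defence, had 26.2 and 27.2 CPM in the dark and 10.4 and 9.82 CPM with lit shoots at 4 days, and 47.5 and 48.2 against 19.6 and 15.3 CPM at 7 days. RDR1 fell with light by 1.40 ± 0.140 at 4 days (edgeR adjusted p = 9.13e-05) and 1.46 ± 0.136 at 7 days (2.43e-05), like DCL2 and AGO2. It rose over time in the dark by 0.84 ± 0.134 (edgeR adjusted p = 0.00264) and with lit shoots by 0.79 ± 0.139 (0.0238). The 4-day RDR6 call was lost without replicate 2 of dark 4 days (adjusted p = 0.059) or of lit 4 days (0.0651), and the RDR1 rise with lit shoots without replicate 1 or 2 of lit 4 days (0.172 and 0.144) or replicate 1 of lit 7 days (0.0706). SGS3, the partner of RDR6, rose by 0.80 ± 0.154 over time in the dark (edgeR adjusted p = 0.00589). TEX1, a subunit of an RNA export complex, rose at 4 days by 0.61 ± 0.155 (0.00933; 0.0847 without replicate 1 of dark 4 days and 0.0845 without replicate 2 of lit 4 days). SDE3, an RNA helicase, rose at 7 days by 0.49 ± 0.148 (0.0162; 0.108 without replicate 1 of dark 7 days and 0.0817 without replicate 2 of lit 7 days).

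Genes around AGO4 in RNA-directed DNA methylation also moved both ways, 4 up and 4 down of 14 at 4 days (57.1% called, as of all genes) and 6 up and 3 down at 7 days (64.3% called against 69.0% of all genes). The 4 CLASSY proteins, chromatin remodellers that bring RNA polymerase IV to its targets, did not move together. CLSY1 had 4.68 and 5.02 CPM in the dark and 10.9 and 12.5 CPM with lit shoots at 4 days, a rise of 1.27 ± 0.192 (edgeR adjusted p = 0.000642), and it rose by 1.22 ± 0.188 at 7 days (0.000429). CLSY2 had 6.76 and 4.59 CPM in the dark and 0.933 and 0.206 CPM with lit shoots at 4 days, and 8.97 and 9.60 against 0.984 and 0.722 CPM at 7 days. CLSY2 fell by 3.30 ± 0.505 at 4 days (edgeR adjusted p = 0.000761) and by 3.45 ± 0.480 at 7 days (0.000258). CLSY3, below the level set for naming genes and named here after its values were seen, had 0.122 to 0.563 CPM in the 4 dark libraries and 2.78 to 3.39 CPM in the 4 lit ones. CLSY4, likewise, had 0.651 to 1.69 CPM over the 8 libraries and no call for light.

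DMS3, which helps RNA polymerase V onto chromatin, rose with light by 1.04 ± 0.202 at 4 days (edgeR adjusted p = 0.00235) and 1.81 ± 0.209 at 7 days (7.76e-05). On the opposite strand AT3G49240 covers 44.5% of the DMS3 gene. The strand counted is not given, so DMS3 reads, here and over time in the dark, could belong to either gene. DRM2, the DNA methyltransferase that AGO4 guides, went the other way from AGO4, with 26.7 and 29.2 CPM in the dark and 15.6 and 15.5 CPM with lit shoots at 4 days. It fell by 0.85 ± 0.121 (edgeR adjusted p = 0.00048). KTF1, an AGO4-binding protein, fell at 7 days by 0.95 ± 0.236 (edgeR adjusted p = 0.00684). In the dark SHH1, a histone reader that recruits polymerase IV, fell with time by 0.78 ± 0.202 (edgeR adjusted p = 0.0197) and DMS3 by 0.73 ± 0.215 (0.0319). SHH1 lost this call without replicate 2 of dark 4 days (adjusted p = 0.107) or of dark 7 days (0.0863), and DMS3 with library totals alone (0.0502) and without replicate 1 of dark 4 days (0.138), replicate 1 of dark 7 days (0.141) or replicate 1 or 2 of lit 4 days (0.0596 and 0.0592).

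**Figure D4:**
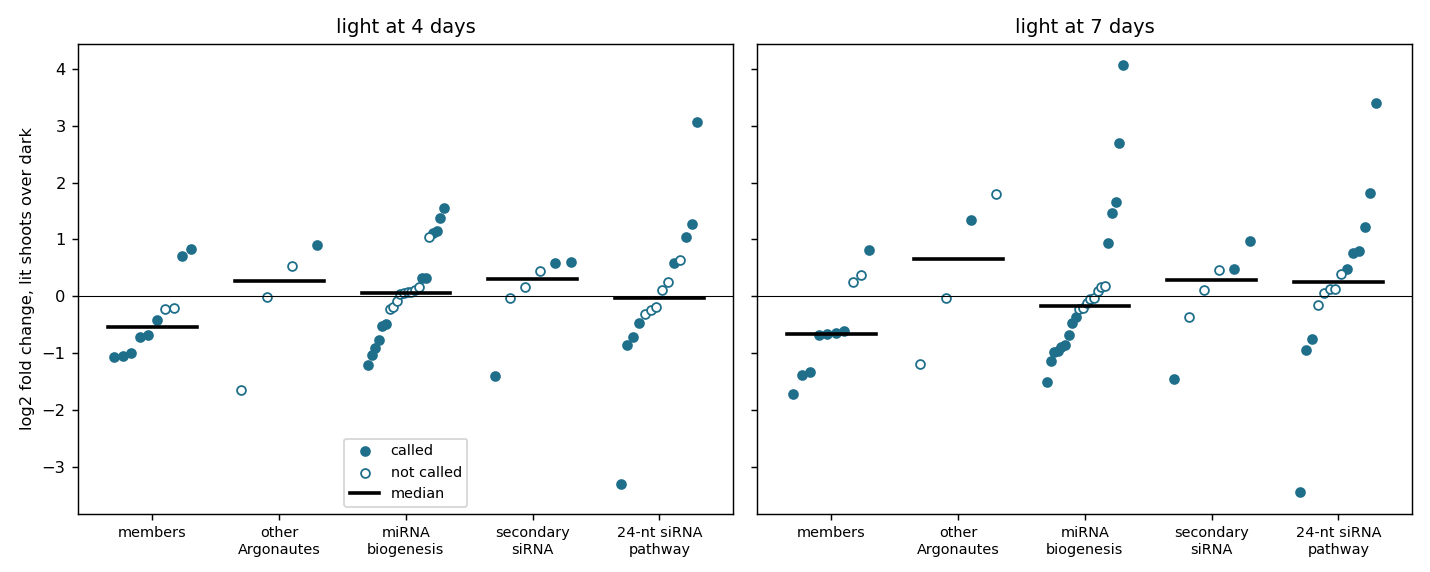
Log2 fold change of lit-shoot over dark roots for the 10 Dicer, Argonaute and Dicer-partner genes (at left, labelled members) and for 46 partner genes in 4 lists, at 4 and 7 days; filled points passed the test and bars are medians. The median of the 10 genes lies at -0.55 and -0.66, and that of the RNA-directed DNA methylation list at -0.03 and 0.26.

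Precursor loci of the miRNAs that target DCL1, AGO1 and AGO2 were mostly too low to read. MIR162A, a precursor gene of miR162, had 15.7 and 12.6 CPM in the dark and 9.03 and 7.73 CPM with lit shoots at 4 days, and 9.97 and 11.7 against 10.2 and 9.27 CPM at 7 days. MIR162A fell with light at 4 days by 0.75 ± 0.174 (edgeR adjusted p = 0.00576), as its target DCL1 did, and the call was lost without replicate 2 of lit 4 days (0.0541). At 7 days, when the DCL1 difference was larger, that of MIR162A was -0.16 ± 0.173 (edgeR adjusted p = 0.443). MIR168A had 0.346 to 1.14 CPM and MIR168B 0 to 0.626 CPM, with no call in any comparison. At 7 days MIR168B had 13 and 17 counts in the dark against 0 and 6 with lit shoots. That difference, -2.51 ± 1.07 on the log2 scale, did not pass (edgeR adjusted p = 0.063). MIR403 had 0 to 11 counts and MIR162B at most 1 count per library, and they were not tested. Of 12 precursor loci of the AGO10 and AGO7 miRNAs and miR173, 4 were tested (MIR165A, MIR166A, MIR166B and MIR390A) and 0 were called in any of the 5 comparisons, at levels of at most 1.58 CPM. No one of these 4 had an unadjusted edgeR p below 0.05 in any comparison, and DESeq2 called 0 as well. The remaining 8 loci had at most 8 counts in a library.

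Trans-acting siRNA precursors, the substrates of DCL4, were higher with light where they were called. Of 8 TAS loci 6 were tested, and TAS3B and TAS3C had 0 counts in every library. At 4 days 3 rose and none fell, against 57.1% of all genes called, 30.5% higher, and at 7 days 4 rose and none fell, against 69.0% called, 36.2% higher. With 6 loci these shares of 50% and 66.7% called lie near those of all genes. TAS3, the precursor cut by the AGO7 and miR390 route, had 14.2 and 17.5 CPM in the dark and 19.5 and 22.5 CPM with lit shoots at 4 days, and 11.1 and 12.8 against 18.5 and 18.6 CPM at 7 days. TAS3 rose by 0.40 ± 0.150 at 4 days (edgeR adjusted p = 0.046) and 0.63 ± 0.152 at 7 days (0.00507). The 4-day TAS3 call was lost when any 1 library was left out (adjusted p from 0.0509 to 0.388), by DESeq2 (0.075), at 1 CPM in 2 samples (0.078) and with organelle, rRNA and tRNA loci left out (0.0715). TAS1C had 5.70 and 5.37 CPM in the dark and 9.46 and 8.79 CPM with lit shoots at 4 days, a rise of 0.72 ± 0.160 (edgeR adjusted p = 0.00462). At 7 days TAS1C rose by 0.53 ± 0.155 (0.0137; 0.0676 without replicate 1 of dark 7 days and 0.0772 without replicate 1 of lit 7 days). TAS1A rose at 7 days by 0.46 ± 0.158 (0.0283; 0.126 and 0.0695 without replicate 1 or 2 of dark 7 days 0.128 without replicate 2 of lit 7 days, and 0.0618 by DESeq2).

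TAS4, which gives rise to siRNAs against MYB genes of the anthocyanin pathway, was near absent in the dark. It had 3 and 3 counts in the dark at 4 days and 31 and 35 counts with lit shoots, and rose by 3.10 ± 0.687 on the log2 scale (edgeR adjusted p = 0.00466). At 7 days it had 0 and 1 counts in the dark and 74 and 40 counts with lit shoots. The ratio of the summed 114 to 1 counts at 7 days has a 95% counting interval of 17.3 to 3911, which covers counting error only. TAS1B and TAS2 had no call at either day.

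The HD-ZIP III genes lie downstream of AGO10 and miR165 and miR166. At 4 days 3 of the 5 fell with light and none rose, against 57.1% of all genes called, 26.6% lower. At 7 days 2 fell and 2 rose, against 69.0% called, 32.8% lower and 36.2% higher. CNA had 96.8 and 104.3 CPM in the dark and 71.6 and 65.6 CPM with lit shoots at 4 days, and 133 and 118 against 106.9 and 77.7 CPM at 7 days. CNA fell by 0.55 ± 0.152 at 4 days (edgeR adjusted p = 0.0133; 0.0933 without replicate 2 of lit 4 days) and by 0.45 ± 0.152 at 7 days (0.0265; 0.136 without replicate 1 of dark 7 days and 0.148 without replicate 2 of lit 7 days). PHV fell by 0.34 ± 0.130 at 4 days (0.0488; 0.189 without replicate 1 of dark 4 days and 0.119 and 0.199 without replicate 1 or 2 of lit 4 days, 0.0541 with no filter and 0.0662 by DESeq2) and by 0.58 ± 0.129 at 7 days (0.00327). PHB fell at 4 days by 0.32 ± 0.090 (0.0149; 0.0634 and 0.0977 without replicate 1 or 2 of lit 4 days and 0.0609 with no filter), and its 7-day value was -0.17 (adjusted p = 0.115). With library totals alone CNA, PHV and PHB at 4 days were not called (adjusted p = 0.0572, 0.375 and 0.283), nor was CNA at 7 days (0.106).

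HB-8 and REV moved up at 7 days. HB-8 had 41.3 and 43.0 CPM in the dark and 67.0 and 48.5 CPM with lit shoots, a rise of 0.45 ± 0.146 (edgeR adjusted p = 0.0208; 0.103 and 0.0801 without replicate 1 or 2 of dark 7 days and 0.143 without replicate 1 of lit 7 days). REV rose by 0.38 ± 0.148 (edgeR adjusted p = 0.0458), a call lost in 10 of 15 alternatives (adjusted p up to 0.275), among them DESeq2 (0.0588) and all left-out libraries but replicate 2 of lit 7 days. In the dark PHV rose with time by 0.48 ± 0.129 (edgeR adjusted p = 0.0226; 0.172 without replicate 2 of dark 4 days and 0.105 and 0.0855 without replicate 1 or 2 of dark 7 days). PHB rose by 0.27 ± 0.090 in the dark (edgeR adjusted p = 0.0464) and by 0.42 ± 0.090 with lit shoots (0.0413). The PHB call in the dark was lost in 11 of 15 alternatives (adjusted p up to 0.209), 6 of them left-out libraries of dark 4 days, dark 7 days and lit 4 days. The PHB call with lit shoots was lost without any 1 of the 4 lit libraries (adjusted p from 0.0745 to 0.245).

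**Figure D5:**
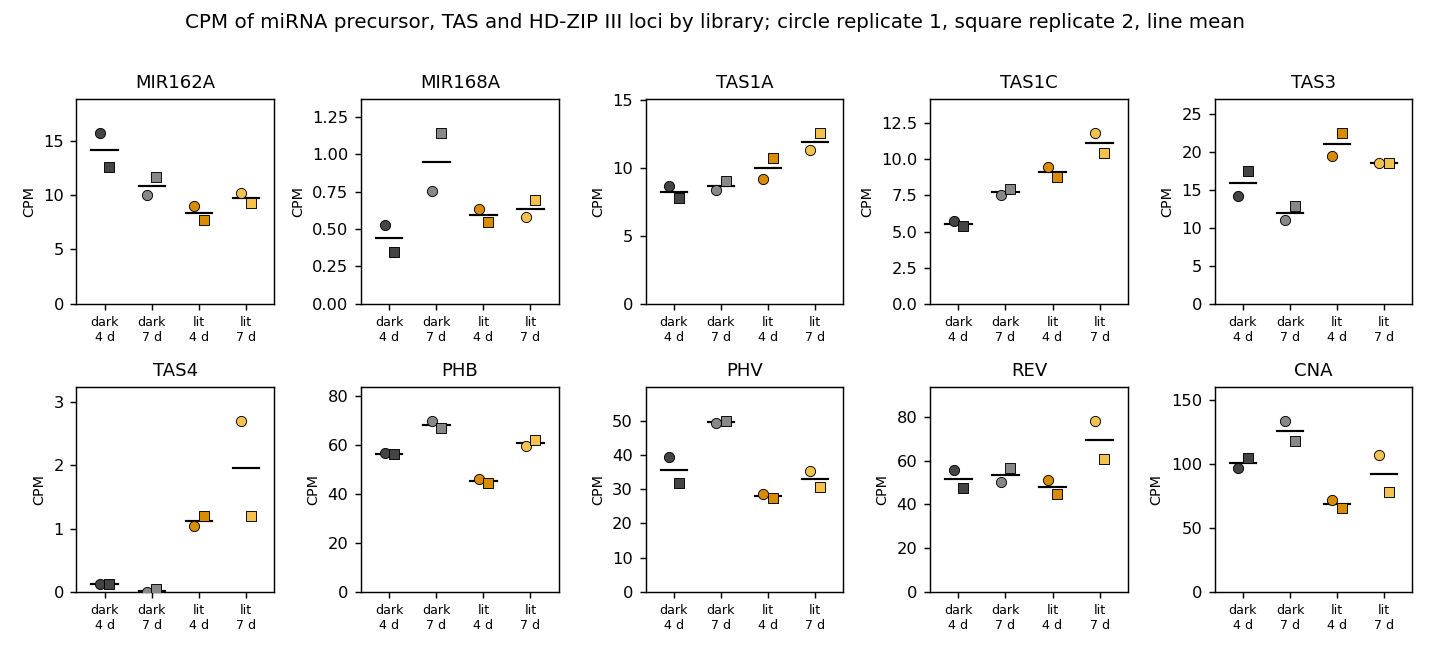
CPM of miRNA precursor, TAS and HD-ZIP III loci in each of the 8 libraries (circles replicate 1, squares replicate 2, lines means). TAS3 lies at 11.1 to 17.5 CPM in the dark and 18.5 to 22.5 CPM with lit shoots, whereas MIR168A stays at or below 1.14 CPM in every library.

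Across the 8 libraries, which form 4 groups, most of the 10 genes followed each other closely. As a description over libraries that share group and depth, the Pearson r of log2 CPM was 0.98 between AGO1 and AGO2 and 0.98 between DCL1 and AGO1. It was 0.95 between DCL2 and AGO2, 0.93 between SE and AGO10, and 0.91 between DCL4 and AGO1. AGO4 ran against them, with r of -0.98 to AGO10 and -0.96 to DCL1, and its most similar gene among the 10 was HYL1 at 0.74. DCL3 followed none closely, with DCL4 nearest at 0.54.

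Of 7026 genes with a symbol and an average log2 CPM of at least 2, the one most like each of the 10 genes is named with its r. GSL10 was most like DCL1 (0.998), LACS7 most like DCL2 (0.996), XRCC2 most like DCL3 (0.951) and LUP2 most like DCL4 (0.987). FAC1 was nearest to HYL1 (0.990) and NPSN13 to SE (0.998). For the Argonautes these were emb1967 for AGO1 (0.996), FBA6 for AGO2 (0.997), NUDX19 for AGO4 (0.996) and TIM23-1 for AGO10 (0.997). The best of many genes over 8 libraries is high by selection, so these values describe shared profiles across the 4 groups.

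The promoters of AGO1 and AGO4 are shown because one gene fell and the other rose with light while both hold the ACGT core to which bZIP factors bind. The 250 bases before each transcript start were searched on both strands for the G-box CACGTG, the ACGT core (which lies within CACGTG), the TGGGCC element and the telo-box AAACCCTA. ACGT occurred in the promoters of AGO1 and AGO4 and in none of the other 8, and in 44.1% of all 27443 promoters. TGGGCC occurred in that of DCL3 and in 13.7% of all promoters. CACGTG (6.49% of all) and AAACCCTA (4.49%) were in none of the 10. The sequences below are from RefSeq TAIR10.1, 5′ to 3′ on the gene's strand, at chr1:17892633-17892882 (minus) for AGO1 and chr2:11542392-11542641 (minus) for AGO4, with the ACGT matches in capitals.
AGO1 promoter: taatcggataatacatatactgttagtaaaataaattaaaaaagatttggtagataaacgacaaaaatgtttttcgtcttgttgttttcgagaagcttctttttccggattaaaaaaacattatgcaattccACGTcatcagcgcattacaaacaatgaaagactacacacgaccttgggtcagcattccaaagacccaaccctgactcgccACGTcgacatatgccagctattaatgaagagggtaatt
AGO4 promoter: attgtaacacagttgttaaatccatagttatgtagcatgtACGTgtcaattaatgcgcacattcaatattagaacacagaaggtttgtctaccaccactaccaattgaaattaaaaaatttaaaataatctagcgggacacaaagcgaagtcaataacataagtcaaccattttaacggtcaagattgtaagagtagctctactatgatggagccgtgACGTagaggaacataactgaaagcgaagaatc
Both windows hold the core 2 times, and neither holds the full G-box.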

How the data were processed

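The authors deposited a table of whole-number counts per locus for the 8 libraries, not normalized, and all 8 columns were used. Per the labels' protocols, total RNA was depleted of ribosomal RNA (RiboZero). Per the submitters' processing notes, CASAVA 1.8.2, FastQC, Trim Galore, TopHat2, Subread and the TAIR10 build were used; their settings, the strand counted and the use of multiply matching reads: not given in the sources used here. Overlapping loci may thus share reads. Opposite-strand loci also covered 100% of MIR165A, 31.4% of SYP111, 17.4% of CDKB1;2, 15.1% of PCNA2 and 13.2% of CESA8. Symbols, positions, exon lengths (union of exons) and sequences came from RefSeq TAIR10.1.

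Loci were kept by filterByExpr of edgeR 4.0.16 in R 4.3.3 (minimum count 10, minimum total 15), leaving 20936 of 33602. Counts were scaled with TMM factors, and CPM use these effective library sizes. One quasi-likelihood fit (glmQLFit, robust; glmQLFTest; residual degrees of freedom 4) held all 8 libraries with a coefficient per group. The common biological coefficient of variation was 14.9%. Genes were called at a Benjamini-Hochberg adjusted p below 0.05 over all 20936 genes; the SE is the log2 fold change divided by the square root of F. The fit was tested on simulated data in which few genes changed, unlike the light comparisons here. That run did not test the scaling under broad change. Replicates are independent biological samples, 2 per group. The comparisons were lit over dark at each day, 7 over 4 days in each condition, and the interaction. The 15 alternatives were DESeq2 size factors, library totals alone, no filter, at least 1 CPM in 2 samples, organelle, rRNA and tRNA loci left out, the DESeq2 1.42.0 Wald test, a replicate block, and each of the 8 libraries left out in turn, where a group of 1 library is assumed to vary like the others.

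The 10 genes and all lists were chosen with earlier results of these data known. By rule, all 10 genes are named; of every other list, cell type markers included, up to 2 called genes with the largest rise and 2 with the largest fall per comparison where log2 CPM averaged 1 or more, and all precursor, TAS and HD-ZIP III loci with counts. Other names were chosen after their values were seen.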

Additional observations from a re-analysis of the deposited data

Results flagged for a closer look

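A test of the interaction found a light response that differed between 4 and 7 days for the genes below, given as the 7-day log2 fold change minus the 4-day one, with edgeR adjusted p. DCL1 stood at -0.719 (0.0297) and SE at -0.452 (0.0462), both more negative at 7 days. Among their partner genes HST stood at -0.523 (0.0497), CPL1 at -0.67 (0.0345) and DRB5 at 2.95 (0.00328). Of the 15 alternatives, the DCL1 call held in 9, that of SE in 3, HST in 2, CPL1 in 7 and DRB5 in 15. Dividing-cell markers were more positive at 7 days, with CDKB1;2 at 2.47 (0.0128), CYCA1;1 at 2.09 (0.0167), PLE at 2.23 (0.00156) and SYP111 at 2.19 (0.00184). Of the root identity markers, SHR stood at -0.736 (0.0469) and WER at 1.97 (0.013). Vascular markers were more positive at 7 days, with XCP1 at 4.46 (0.000117), CESA7 at 3.89 (0.00118), CESA8 at 4.52 (0.00094) and SUC2 at 1.68 (0.00183). The shoot epidermal marker PDF1 stood at 7.30 (0.00219). Among these marker calls that of SHR was lost in 10 of 15 alternatives (adjusted p up to 0.137), CYCA1;1 in 3 (0.0712), WER in 2 (0.0579) and CDKB1;2 in 1 (0.062).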

How the results depend on the processing

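Of the light calls among the 10 genes, those of DCL1, DCL2, DCL4, HYL1, AGO2, AGO4 and AGO10 at 4 days and all 8 at 7 days held in all 15 alternatives. The number of the 10 genes called ranged from 7 to 9 (light at 4 days) and was 8 (light at 7 days) with 1 library left out. It ranged from 1 to 3 for time in the dark, 0 to 1 for time with lit shoots and 0 to 1 for the interaction, and that of partner genes from 7 to 10, 0 to 1 and 1 to 3. Time with lit shoots gave 2 calls with no filter, and the interaction gave 1 with no filter, at 1 CPM, without organelle, rRNA and tRNA loci and with the replicate block. Some small differences that did not pass changed sign. HYL1 over time with lit shoots became 0.0149 with library totals, 0.00197 with no filter, 0.0311 at 1 CPM, 0.0339 without organelle loci and 0.00149 with the replicate block, and ran from -0.134 to 0.137 with 1 library left out. AGO4 over time with lit shoots became 0.0104 at 1 CPM and 0.013 without organelle loci, with -0.0968 to 0.0451 when 1 library was left out. DCL2 in the interaction became -0.000256 with library totals. With 1 library left out it ran from -0.0296 to 0.176, DCL4 in the interaction from -0.141 to 0.207, DCL2 and DCL3 in the dark from -0.00894 to 0.181 and -0.00627 to 0.184, and DCL1 with lit shoots from -0.119 to 0.173. The cause of these changes was not tested. Replicate differences of the groups correlated at 0.0099 to 0.0872 over 6 pairs of groups. These low values cannot show whether libraries of the same replicate number were handled together. The replicate block left 8, 8, 4 and 1 of the 10 genes called in the light and time comparisons, and of the calls among partner, TAS, precursor and HD-ZIP III genes it ended those of HST (interaction, adjusted p = 0.0609), PHB (0.0565) and CLSY4 (0.0557) in the dark. Several miRNA precursor loci, AGO5, AGO9, TAS3B and TAS3C had too few counts to be tested, and mature small RNAs were not measured.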
